A study of Mus musculus with 18 samples.

Results

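Cyclophosphamide (CPA) responses of GL261 gliomas were compared between 2 kinds of host, immunocompetent B6 mice and scid mice, which lack functional T and B cells. For each gene, the response was the log2 fold change of CPA/6d-treated over untreated tumors within a host, and the response difference was the GL261(B6) response minus the GL261(scid) response. The comparison used 8 of the 18 libraries of the series, and 14962 of 23284 RefSeq genes had enough reads to be tested. GL261 cells were grown subcutaneously on the flanks of male mice aged 12 weeks, either C57BL/6 (strain label C57BL/BNTac) or ICR scid, which carry the scid mutation of Prkdc. CPA/6d mice received 2 intraperitoneal injections of 140 mg/kg CPA, 6 days apart, and their tumors were taken 6 days after the second. Each group comprised 2 RNA pools, made from 9 and 10 tumors (CPA/6d, B6), 9 and 10 tumors (untreated, B6), 9 and 9 tumors (CPA/6d, scid) or 6 and 6 tumors (untreated, scid). Another pair of scid pools, of 12 tumors each, came from mice injected 9 days apart (CPA/9d). GL261 is 1 cell line, derived from a C57BL/6 mouse, so the tumor cells were syngeneic with the B6 hosts only. Strand-specific libraries were made for B6 tumors and unstranded ones for scid tumors, according to the labels, so host strain, host immunity and library kit cannot be told apart in any difference of level between hosts. Each response was taken within 1 host and 1 kit before the responses were subtracted, and whether the kit affects a fold change was not tested. Host strain, host immunity, the match of tumor cells to host and library kit also cannot be told apart in any response difference.

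CPA is an alkylating prodrug that damages DNA and kills dividing cells. Given at repeated, spaced doses it is also known to induce innate and adaptive immune cell recruitment into gliomas. T cells and natural killer (NK) cells kill target cells with perforin and granzymes, interferon-gamma and type I interferons each induce their own sets of response genes, and macrophages and neutrophils are the main phagocytes. Mice with the scid mutation cannot join V(D)J gene segments and therefore make no mature T or B cells, but keep NK cells, macrophages and neutrophils. In bulk tumor RNA, fewer cells of a type and less RNA per cell cannot be told apart.

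Total reads over RefSeq genes were 6169217 to 10118527 per GL261(B6) pool and 10637113 to 15979644 per GL261(scid) pool. A count of 3 reads, taken as the detection limit, corresponds to 3.13 to 5.03 normalized reads in B6 pools and 1.99 to 2.90 in scid pools, for counting error only. Levels are given below as normalized reads of single pools, with the pool with more reads before the pool with fewer reads. The 4 glial markers of the tumor line summed to 5937 to 6234 normalized reads in CPA/6d and 17749.7 to 17784 in untreated GL261(B6) pools, and to 9184 to 9611 in CPA/6d and 23100.1 to 25242 in untreated GL261(scid) pools. Among T cell markers, Cd3e had 341 and 398 normalized reads in CPA/6d and 46.8 and 68.7 in untreated GL261(B6) pools, whereas 1 read was found over the 4 GL261(scid) pools. Some libraries stood apart. Both CPA/6d GL261(scid) pools held 889 and 608 normalized reads of Xist, the RNA that silences an X chromosome in females, against 21.3 and 34.4 in untreated scid pools and 33.4 and 44.0 in CPA/9d scid pools, although all mice were labelled male. Liver markers (Alb, Apoa1, Ttr) summed to 0 to 38.3 normalized reads in GL261(B6) pools, and to 2393 to 3266 in CPA/6d and 2820.2 to 2863 in untreated GL261(scid) pools. Skeletal muscle markers summed to 6945 in the CPA/6d GL261(B6) pool with more reads and 681 in the one with fewer, and skin markers to 11.5 and 350.3. With 2 pools a group, the p-values measure the spread between pools, which may be partly technical.

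Both hosts responded broadly, and most of the response was shared. A gene was called when its log2 value passed 1 in size (2-fold) with an unadjusted p under 0.001 in limma, and p-values adjusted by Benjamini-Hochberg over the 14962 genes are given beside single genes. Errors of log2 values are standard errors from that fit. In GL261(B6) tumors 2627 genes rose (17.6% of genes tested) and 909 fell (6.08%), and in GL261(scid) tumors 2621 rose (17.5%) and 1106 fell (7.39%). These shares, and those of called differences given below, are the background for every list count that follows. Genes that rose in both hosts numbered 1983, which is 75.49% of those that rose in B6 and 75.66% of those that rose in scid tumors. Genes that fell in both numbered 651, or 71.62% of the B6 list and 58.86% of the scid list. Across genes, which are not independent replicates, the responses correlated with Pearson's r = 0.854 and Spearman's rho = 0.878. The response difference itself lay within 0.5 of 0 for 76.12% of genes and had a median of 0.03. It was called higher in B6 for 161 genes (1.08%) and lower in B6 for 170 genes (1.14%), 2.21% in either direction, and every one of these 331 genes had an adjusted p of at most 0.0132. With the CPA/9d scid pools in place of CPA/6d, which share the same untreated pools but hold no raised Xist, 113 of the 161 and 148 of the 170 were still called. Of the genes named by rule below, C3, C6, Cd3e, Cyp2e1, Eno1, Il1rl1, Mgl2, Mrgprg, Pdcd1lg2, Rasgrp1, Tnfrsf18 and Xist lost the call with CPA/9d. By contrast, 899 genes were called in B6 alone and 1090 in scid alone, and for 800 and 994 of these the difference was not called, so a call in 1 host only was mostly not a called difference.

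**Figure D1:**
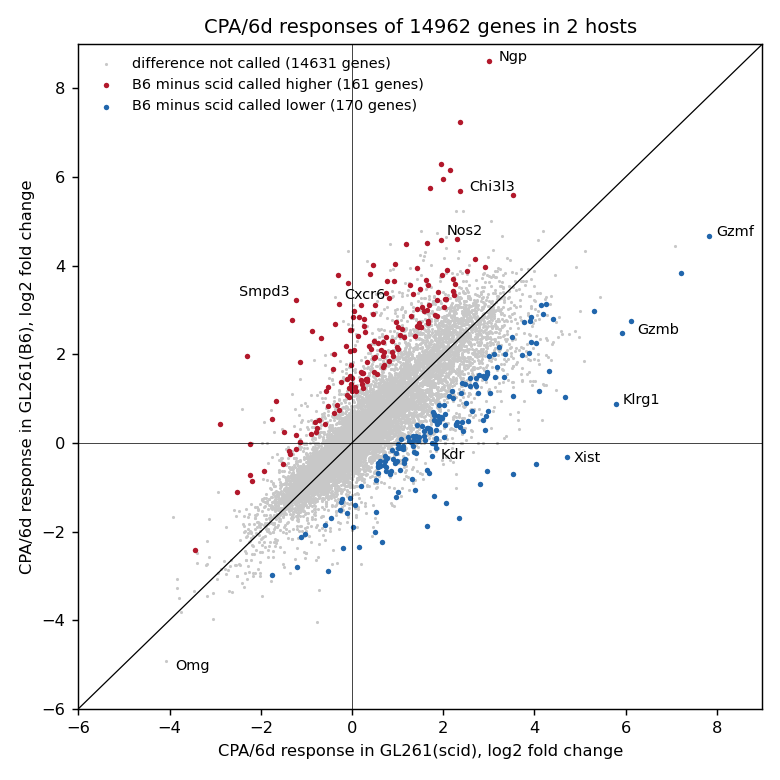
CPA/6d response in GL261(B6) tumors (y axis, log2 fold change) against the response in GL261(scid) tumors (x axis, log2 fold change), 1 point per gene for 14962 genes, with the line of equal responses. Red points are the 161 genes whose response difference was called higher in B6 and blue points the 170 genes called lower; Ngp and Chi3l3 lie far above the line, and Gzmb, Gzmf and Klrg1 far below it.

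The called differences were mostly differences of induction. Of the 161 genes with a higher response in B6, 84 rose in B6 and were not called in scid tumors, 47 rose in both, 15 fell in scid tumors and were not called in B6, and 2 fell in both. Of the 170 with a lower response in B6, 81 rose in scid tumors and were not called in B6, 43 rose in both, 15 fell in B6 alone and 4 fell in both. The rest were called in neither host or in opposite directions. Opposite calls were made for 3 genes, 2 of which had at least 50 normalized reads in some group. Smpd3, a neutral sphingomyelinase, had 153 and 227 normalized reads in CPA/6d against 24.1 and 15.1 in untreated GL261(B6) pools, and 20.4 and 24.1 in CPA/6d against 55.2 and 51.2 in untreated GL261(scid) pools. Its groups did not overlap within either host, and the Smpd3 response was 3.22 ± 0.28 in B6 and -1.22 ± 0.28 in scid tumors, a difference of 4.44 ± 0.39 (adjusted p = 5.92e-05). The CPA/9d scid pools held 41.5 and 60.0 normalized reads of Smpd3, a response of -0.09 that was not called, and with them the response difference was 3.28 and still called. Tmem178, a transmembrane protein gene, was the reverse case, with 20.9 and 19.8 normalized reads in CPA/6d against 55.4 and 41.9 in untreated GL261(B6) pools, and 71.8 and 74.4 in CPA/6d against 19.9 and 20.5 in untreated GL261(scid) pools, a difference of -3.01 ± 0.34 (adjusted p = 0.000277). At the other end, 655 genes were called in the same direction in both hosts with a 95% interval of the difference inside 0.5 of 0. Among those with the largest shared responses were the cholesterol exporters Abcg1 and Abca1, which rose by 3.65 ± 0.09 and 3.29 ± 0.13 in B6 and by 3.76 ± 0.09 and 3.33 ± 0.13 in scid tumors, and Idi1, an enzyme of sterol synthesis, which fell in both hosts (-3.35 ± 0.12 in B6 and -3.47 ± 0.12 in scid tumors). The lymphocyte receptor gene Ly9 rose by 3.54 ± 0.11 in B6 and 3.44 ± 0.11 in scid tumors, and AW112010 and BC013712, given no role here, rose by 3.66 and 3.27 in B6 and by 3.70 and 3.27 in scid tumors.

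Neutrophil genes were among those with the highest response differences, as were Smpd3 and Asb11, which are not in the neutrophil list. Of 12 tested members of the neutrophil list, 6 had a higher response in B6 (background 1.08%) and none a lower one. The median difference was 2.75, or 1.87 when pools were averaged before taking logs and means under the detection limit were raised to it. Ngp (mm9 chr9:110322254-110325514), a neutrophil granule protein, had 312 and 496 normalized reads in CPA/6d against 0 and 0 in untreated GL261(B6) pools, and 20.4 and 7.73 in CPA/6d against 0 and 1.86 in untreated GL261(scid) pools. No read was counted in untreated GL261(B6) pools, so Ngp was at least 169-fold higher after CPA/6d, while in scid tumors it was 19.4-fold higher (95% counting interval 5.01 to 166, on 2 untreated reads). The Ngp difference was 5.61 ± 0.82 (adjusted p = 0.00121), and fitted values of genes with so few untreated reads depend on the 1 normalized read added before taking logs. S100a9 and S100a8 encode the 2 chains of calprotectin, an abundant neutrophil protein. S100a9 had 418 and 799.5 normalized reads in CPA/6d against 1.42 and 5.03 in untreated GL261(B6) pools, and 62.0 and 16.4 in CPA/6d against 5.32 and 5.58 in untreated GL261(scid) pools. S100a8 had 536 and 836 normalized reads in CPA/6d against 11.4 and 8.38 in untreated GL261(B6) pools, and 52.1 and 18.4 in CPA/6d against 5.98 and 8.38 in untreated GL261(scid) pools. In both genes the CPA/6d GL261(B6) pools stood above all other pools, and the differences were 4.88 ± 0.82 (adjusted p = 0.00278) and 3.98 ± 0.59 (adjusted p = 0.00136). Ltf, which encodes lactoferrin, had 179 and 289.6 normalized reads in CPA/6d against 2.84 and 1.68 in untreated GL261(B6) pools, and 12.0 and 3.86 in CPA/6d against 0.665 and 0.931 in untreated GL261(scid) pools, a difference of 4.01 ± 0.72 (adjusted p = 0.00417). Camp, the cathelicidin, and Mpo, myeloperoxidase, differed by 4.34 ± 0.89 and 4.03 ± 0.79 (adjusted p = 0.0081 and 0.00623), and both were called on at most 1 read in untreated GL261(B6) pools. Camp had 109 and 133 normalized reads in CPA/6d GL261(B6) pools and Mpo had 41.8 and 66.4, with Mpo at least 22.7-fold higher than in untreated pools. With 10 normalized reads added the Mpo difference was 1.97, and the Camp call was lost in 4 of the 6 fits without 1 pool in which it was tested (range 3.58 to 5.04).

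The other 6 tested neutrophil genes were not called. The receptor gene Csf3r differed by -0.41 (95% interval -0.82 to 0.00), Cxcr2 by -0.25 (-0.79 to 0.29), the gelatinase Mmp9 by -1.10 (-1.99 to -0.21) and lipocalin Lcn2 by 1.15 (0.12 to 2.18), and all of these but Lcn2 were negative. In scid tumors 6 of the 12 tested members rose, against 10 of 12 in B6 tumors. The spread between pools was wide for these genes, with S100a9 far apart between the CPA/6d GL261(scid) pools. Weighting by voom ended all 6 calls, and without the CPA/6d GL261(B6) pool with fewer reads 2 of the 6 remained called. That pool also held the skin markers, and their part in the result was not tested.

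**Figure D2:**
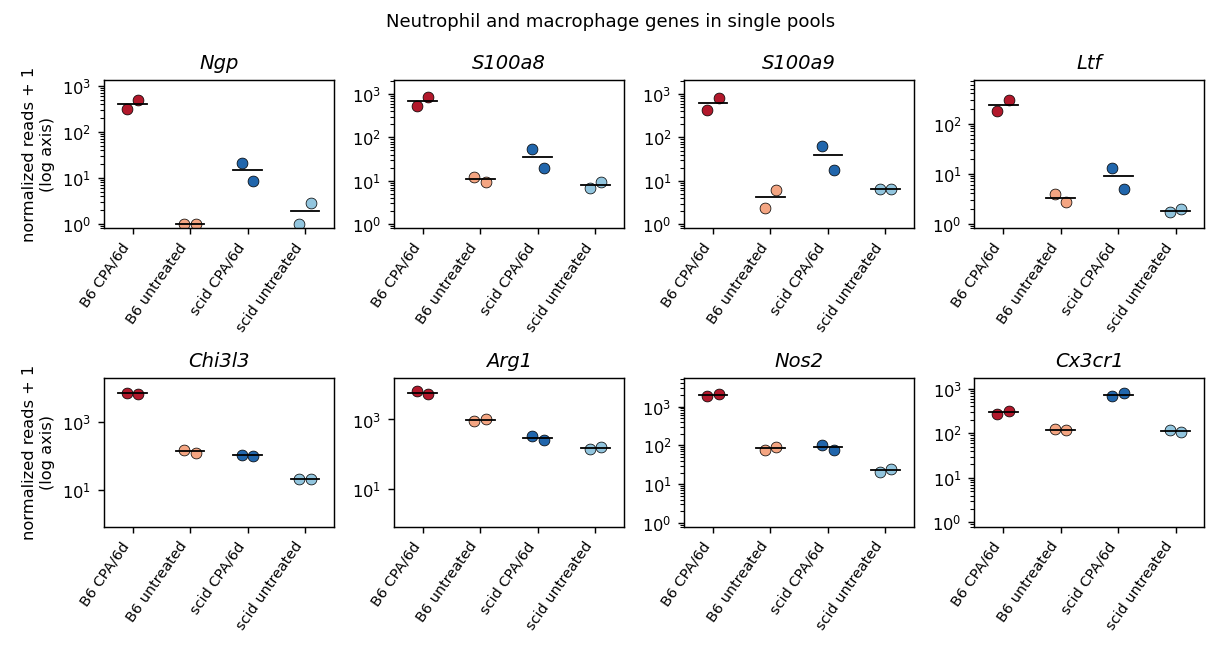
Normalized reads plus 1 (y axis, log scale) of 4 neutrophil genes (Ngp, S100a8, S100a9, Ltf) and 4 macrophage genes (Chi3l3, Arg1, Nos2, Cx3cr1) in each of the 2 pools of CPA/6d and untreated GL261(B6) and GL261(scid) tumors; bars are group means. The 4 neutrophil genes were highest in both CPA/6d GL261(B6) pools, and Cx3cr1 was highest in both CPA/6d GL261(scid) pools.

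Macrophage genes rose in both hosts, but individual members rose to different degrees. Of 27 tested macrophage and monocyte genes, 22 rose in B6 and 23 in scid tumors, the median difference was 0.07, and 4 had a higher and 2 a lower response in B6. The 4 defining markers summed to 20167 to 22706 normalized reads in CPA/6d and 3123 to 3398 in untreated GL261(B6) pools, and to 18782 to 19642 in CPA/6d and 2286 to 2458 in untreated GL261(scid) pools. Chi3l3 (Ym1), which encodes a protein related to chitinases and marks alternatively activated macrophages, had 7544 and 6742 normalized reads in CPA/6d against 153 and 126 in untreated GL261(B6) pools, and 108 and 100.5 in CPA/6d against 19.3 and 19.5 in untreated GL261(scid) pools. The Chi3l3 response was 5.67 ± 0.12 in B6 and 2.37 ± 0.12 in scid tumors, a difference of 3.31 ± 0.17 (adjusted p = 3.72e-06). Chi3l3 has a near-identical relative in Chi3l4, and how reads were split between them is not known. Arg1, which encodes arginase and is another gene of that state, had 6448 and 5270.5 normalized reads in CPA/6d against 913 and 1001 in untreated GL261(B6) pools, and 334 and 262 in CPA/6d against 138 and 157 in untreated GL261(scid) pools, a difference of 1.61 ± 0.17 (adjusted p = 0.000187). Nos2, the inducible nitric oxide synthase, which is known for the opposite, interferon-activated state, had 1834 and 2147 normalized reads in CPA/6d against 73.8 and 92.2 in untreated GL261(B6) pools, and 101.4 and 73.4 in CPA/6d against 19.9 and 23.3 in untreated GL261(scid) pools. The Nos2 difference was 2.62 ± 0.26 (adjusted p = 0.000106), so both arginine-consuming enzymes responded more in B6 hosts. The lectin Mgl2 and the scavenger receptor Msr1 also had higher responses in B6 (1.82, adjusted p = 0.00142, and 1.09, adjusted p = 0.00258). Mgl2 was not called with the CPA/9d scid pools, and Msr1 lost its call in 2 of 8 fits without 1 pool (range 0.88 to 1.30), those without the untreated GL261(B6) pool with more reads and without the CPA/6d GL261(scid) pool with fewer reads.

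Lower responses in B6 were found for 2 members. Cx3cr1, the fractalkine receptor of monocytes and resident macrophages, had 268 and 316 normalized reads in CPA/6d against 121 and 119 in untreated GL261(B6) pools, and 685 and 781 in CPA/6d against 115 and 104 in untreated GL261(scid) pools. Untreated levels of Cx3cr1 were close in the 2 hosts, and its response was 1.27 ± 0.12 in B6 and 2.73 ± 0.12 in scid tumors, a difference of -1.45 ± 0.16 (adjusted p = 0.000277). Cd14, the coreceptor for endotoxin, had 238 and 247 normalized reads in CPA/6d against 139 and 198 in untreated GL261(B6) pools, and 629 and 527 in CPA/6d against 160.3 and 143 in untreated GL261(scid) pools, a difference of -1.37 ± 0.22 (adjusted p = 0.00194). Mast cell, basophil and eosinophil genes gave no called difference among 10 tested members, with a median of 1.38 on few reads. Cpa3, a mast cell protease, had 26.1 and 38.1 normalized reads in CPA/6d and 5.68 and 5.03 in untreated GL261(B6) pools, and 11.3 and 7.73 in CPA/6d and 4.65 and 4.65 in untreated GL261(scid) pools. The mast cell proteases Mcpt4, Cma1 and Tpsb2 differed by 0.58, 1.26 and 2.02, with adjusted p-values of 0.538, 0.294 and 0.0413. The platelet genes Pf4, Itga2b and Itgb3 rose in both hosts, and their differences, with Gp1bb, ran from -0.53 to 0.23, none of the 5 tested list members being called. Red cell genes were too sparse to compare, with 3 tested members (Alas2, Slc4a1 and Epb4.2 at 0.98, 2.66 and -0.33, none called).

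Cytotoxic effector genes gave the reverse pattern, with larger fold induction in scid tumors. Of 15 members, 14 rose in B6 and 14 in scid tumors, and 5 had a lower response in B6 (background 1.14%) and none a higher one. The median difference was -1.0, or -0.66 when pools were averaged before taking logs and means under the detection limit were raised to it. Gzmb (mm9 chr14:56877693-56881097), which encodes granzyme B, had 841 and 760.0 normalized reads in CPA/6d against 128 and 109 in untreated GL261(B6) pools, and 789 and 1021 in CPA/6d against 12.0 and 12.1 in untreated GL261(scid) pools. After CPA/6d the Gzmb pools of the 2 hosts overlapped, whereas untreated B6 pools lay above untreated scid pools, a comparison of levels in which host and library kit cannot be told apart. The Gzmb response was 2.75 ± 0.14 in B6 and 6.11 ± 0.14 in scid tumors, a difference of -3.36 ± 0.20 (adjusted p = 6.54e-06). Gzma, granzyme A, had 312 and 298 normalized reads in CPA/6d against 59.6 and 48.6 in untreated GL261(B6) pools, and 711 and 913 in CPA/6d against 12.6 and 12.1 in untreated GL261(scid) pools, a difference of -3.44 ± 0.23 (adjusted p = 1.28e-05). Perforin (Prf1), which lets granzymes enter the target cell, had 272 and 239 normalized reads in CPA/6d against 36.9 and 26.8 in untreated GL261(B6) pools, and 455 and 524 in CPA/6d against 15.3 and 8.38 in untreated GL261(scid) pools. The Prf1 difference was -2.33 ± 0.36 (adjusted p = 0.00163). For Gzma and Prf1, unlike Gzmb, the CPA/6d pools also did not overlap between hosts.

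Other granzymes of the Gzmb gene cluster were also induced more in scid tumors. Gzmf had 144 and 129 normalized reads in CPA/6d against 5.68 and 3.35 in untreated GL261(B6) pools, and 558 and 535 in CPA/6d against 1.99 and 0.931 in untreated GL261(scid) pools, a difference of -3.16 ± 0.43 (adjusted p = 0.00078). Gzmg, which is outside the list, had 77.3 and 74.9 normalized reads in CPA/6d and 2.84 and 6.71 in untreated GL261(B6) pools, and 354 and 359 in CPA/6d and 1.99 and 0.931 in untreated GL261(scid) pools, a difference of -3.39 ± 0.51 (adjusted p = 0.00149). The fifth called member of the list, Gzmc, differed by -1.65 ± 0.19 (adjusted p = 0.000331), and Gzmc to Gzmg are close relatives among which reads may be shared. Over the whole list the summed level was 5364 to 5675 normalized reads in CPA/6d and 692 to 862 in untreated GL261(B6) pools, and 5976 to 6685 in CPA/6d and 372 to 392 in untreated GL261(scid) pools. T cell markers, given with the T cell genes, also differed between hosts after CPA/6d, and their part in the result was not tested. The other effector genes were not called. Interferon-gamma (Ifng) had 104 and 102 normalized reads in CPA/6d and 15.6 and 8.38 in untreated GL261(B6) pools, against 2.11 and 5.8 in CPA/6d and 0 and 0 in untreated GL261(scid) pools, so scid levels were near or under the detection limit and its difference of 0.86 rests on few reads. The chemokine Ccl5 differed by 0.33 (95% interval -0.03 to 0.69) and Fasl, the death ligand, by -0.07 (-1.05 to 0.91). With all 18 libraries in the fit, 3 of the list were called lower in place of 5.

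**Figure D3:**
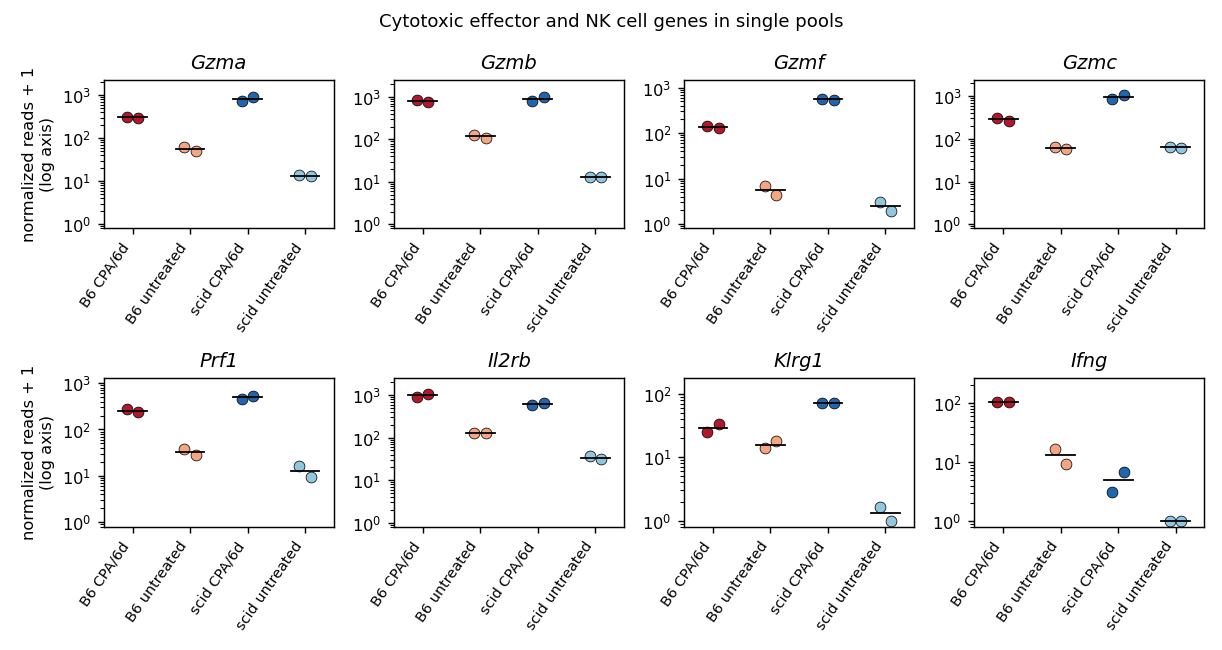
Normalized reads plus 1 (y axis, log scale) of 4 granzymes (Gzma, Gzmb, Gzmf, Gzmc), perforin (Prf1) and 3 lymphocyte genes (Il2rb, Klrg1, Ifng) in each of the 2 pools of CPA/6d and untreated GL261(B6) and GL261(scid) tumors; bars are group means. Gzma, Gzmb, Gzmf and Prf1 lie higher in untreated GL261(B6) than in untreated GL261(scid) pools but not after CPA/6d, while Gzmc starts level in both hosts and Ifng is higher in B6 pools in both conditions.

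NK cell genes rose in both hosts, and their differences ran in both directions. Of 17 tested members 14 rose in B6 and 11 in scid tumors, the median difference was -0.11, and 1 was called in each direction. The 4 defining markers (Ncr1, Klrb1c, Klrd1 and Eomes) summed to 593 to 677 normalized reads in CPA/6d and 78.8 to 86.6 in untreated GL261(B6) pools, and to 348 to 361 in CPA/6d and 25.1 to 54.5 in untreated GL261(scid) pools. Il2rb, the receptor chain through which interleukin-2 and interleukin-15 act on NK and T cells, had 914 and 1055 normalized reads in CPA/6d against 129 and 131 in untreated GL261(B6) pools, and 583 and 653 in CPA/6d against 35.9 and 29.8 in untreated GL261(scid) pools, a difference of -1.29 ± 0.17 (adjusted p = 0.000712). Klre1, a lectin-like NK receptor, had 101.3 and 103 normalized reads in CPA/6d against 18.5 and 18.4 in untreated GL261(B6) pools, and 45.1 and 27.0 in CPA/6d against 30.6 and 32.6 in untreated GL261(scid) pools, a difference of 2.27 ± 0.37 (adjusted p = 0.00255). Beyond the list, Klrg1, an inhibitory receptor of mature NK and effector T cells, had the second lowest difference of the named genes. It had 24.0 and 32.5 normalized reads in CPA/6d against 12.8 and 16.8 in untreated GL261(B6) pools, and 70.4 and 70.5 in CPA/6d against 0.665 and 0 in untreated GL261(scid) pools. On 1 untreated read, Klrg1 was 182-fold higher in CPA/6d scid tumors (95% counting interval 32.2 to 7216), its B6 response of 0.89 ± 0.38 was not called, and the difference was -4.90 ± 0.54 (adjusted p = 0.000221), or -2.34 with 10 normalized reads added. Klra5, of the Ly49 receptor family, had 3.13 and 5.65 normalized reads in CPA/6d against 1.42 and 1.68 in untreated GL261(B6) pools, and 72.5 and 75.3 in CPA/6d against 1.99 and 1.86 in untreated GL261(scid) pools, a difference of -3.63 ± 0.63 (adjusted p = 0.0033), but Ly49 genes are near-identical and differ between mouse strains.

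T cell genes rose in B6 tumors, and the CD3 chain genes Cd3g and, with scid pools at or under the detection limit, Cd3e had called response differences. The listed CD3 chain genes Cd3d and Cd247 did not. Cd3d differed by 0.99 (adjusted p = 0.292) on few scid reads, and Cd247 by -0.01. All 14 tested members of the T cell receptor and coreceptor list rose in B6 and 8 of 14 rose in scid tumors, and 2 had a called difference, both higher in B6. The median difference was 0.55, or 0.38 when pools were averaged before taking logs and means under the detection limit were raised to it. The 6 T cell markers summed to 2399 to 2943 normalized reads in CPA/6d and 443 to 474 in untreated GL261(B6) pools, and to 469 to 471 in CPA/6d and 151 to 158 in untreated GL261(scid) pools, where most of the sum came from Cd4 and Lck. Cd3g, a CD3 chain, had 397 and 475 normalized reads in CPA/6d against 42.6 and 77.1 in untreated GL261(B6) pools, and 26.8 and 27.0 in CPA/6d against 15.3 and 24.2 in untreated GL261(scid) pools, a difference of 2.44 ± 0.41 (adjusted p = 0.0028). Cd3e, another CD3 chain whose levels are given above, had a difference of 3.04 ± 0.56 (adjusted p = 0.00439), with no fold given in scid tumors because all 4 pools were at or under the detection limit. Only the B6 response was measured for Cd3e, so its call does not compare responses of 2 hosts. Cd3g lost its call without the CPA/6d GL261(B6) pool with fewer reads, at a difference of 2.305 (range without 1 pool 2.01 to 2.86). Cd3e lost its call without either CPA/6d GL261(B6) pool, at 3.135 without the one with more reads and 2.921 without the other (range 2.67 to 3.41). With 10 in place of 1 normalized read added, 9 members of the list were called higher. Cd8a shows how fitted folds hide levels, since it had 688 and 825 normalized reads in CPA/6d and 114 and 87.2 in untreated GL261(B6) pools, against 10.6 and 9.66 in CPA/6d and 1.33 and 0 in untreated GL261(scid) pools, with a fitted difference of 0.05. Cd4, which is also made by dendritic cells and macrophages, had 379 and 549.5 normalized reads in CPA/6d and 56.8 and 53.6 in untreated GL261(B6) pools, and 276 and 267 in CPA/6d and 21.9 and 27.0 in untreated GL261(scid) pools, and its difference of -0.40 was not called.

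Among 19 tested genes of T cell signaling and transcription, 17 rose in B6 and 10 in scid tumors, and 3 had a higher response in B6, with a median difference of 0.68. Bcl11b, a transcription factor of T cell commitment, differed by 1.65 ± 0.36 (adjusted p = 0.0102), Rasgrp1, which links the T cell receptor to Ras, by 1.05 ± 0.21 (adjusted p = 0.00655), and Lck, the kinase of the receptor, by 1.02 ± 0.17 (adjusted p = 0.00268). Lck had 404 and 482 normalized reads in CPA/6d and 153 and 144 in untreated GL261(B6) pools, and 155 and 165 in CPA/6d and 112 and 107 in untreated GL261(scid) pools. Calls were lost in 7 of 8 fits without 1 pool for Bcl11b, in 4 for Lck and in 3 for Rasgrp1, and their ranges were 1.38 to 1.91, 0.89 to 1.14 and 0.92 to 1.17. With the CPA/9d scid pools the Rasgrp1 difference was 0.61 and not called. Immune checkpoint and regulatory T cell genes rose for 16 of 18 members in B6 and 11 in scid tumors. Pdcd1lg2, which encodes the PD-1 ligand PD-L2, had 1075 and 1028 normalized reads in CPA/6d against 76.7 and 62.0 in untreated GL261(B6) pools, and 35.2 and 30.9 in CPA/6d against 8.64 and 5.58 in untreated GL261(scid) pools, a difference of 1.82 ± 0.31 (adjusted p = 0.00308), and lost its call without either CPA/6d GL261(B6) pool (range 1.55 to 2.10), with all 18 libraries in the fit and with the CPA/9d scid pools, where the difference was 1.11. Tnfrsf18 (GITR), a receptor enriched on regulatory T cells, differed by 1.43 ± 0.29 (adjusted p = 0.00788), while Tnfsf18, its ligand, had the opposite sign. Tnfsf18 had 10.4 and 17.0 normalized reads in CPA/6d against 28.4 and 45.3 in untreated GL261(B6) pools, and 117 and 189 in CPA/6d against 37.2 and 32.6 in untreated GL261(scid) pools, a difference of -3.43 ± 0.46 (adjusted p = 0.000718). Tnfrsf18 lost its call in 6 of 8 fits without 1 pool (range 1.28 to 1.56), and Tnfsf18 in none.

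B cell genes were sparse and gave no called difference among 10 tested members (median 0.00). Ms4a1, which encodes the B cell surface protein CD20, had at most 1.68 normalized reads in any of the 8 pools. Cd79b, a chain of the B cell receptor, had 54.3 and 36.7 normalized reads in CPA/6d against 8.52 and 8.38 in untreated GL261(B6) pools, and 33.8 and 20.3 in CPA/6d against 0.665 and 0 in untreated GL261(scid) pools, a difference of -2.12 ± 0.61 that was not called (adjusted p = 0.0382). Cd22 rose in both hosts, by 3.38 ± 0.14 in B6 and 4.12 ± 0.14 in scid tumors. Cr2, a complement receptor, fell in both, at -1.11 ± 0.20 in B6 and -1.62 ± 0.20 in scid tumors, and the transcription factor gene Ebf1 rose in both with a difference of 0.20 (95% interval -0.72 to 1.12).

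Type I interferon-stimulated genes rose more broadly in B6 hosts. Of 27 members 20 rose in B6 (background 17.6%) and 8 in scid tumors (background 17.5%), 8 had a higher response in B6 and none a lower one, and the difference was positive for all 27, with a median of 0.79 against 0.03 over all genes. Oas2, which encodes an enzyme that senses double-stranded RNA, had 1418 and 1452 normalized reads in CPA/6d against 295 and 292 in untreated GL261(B6) pools, and 3335 and 3211 in CPA/6d against 1987 and 2074 in untreated GL261(scid) pools. CPA/6d and untreated pools did not overlap in either host, and the Oas2 response was 2.29 ± 0.05 in B6 and 0.69 ± 0.05 in scid tumors, a difference of 1.60 ± 0.07 (adjusted p = 2.21e-06). Its relative Oas3 had 1592 and 1592 normalized reads in CPA/6d against 397 and 427 in untreated GL261(B6) pools, and 2170.0 and 2145 in CPA/6d against 1496 and 1533 in untreated GL261(scid) pools, a difference of 1.44 ± 0.08 (adjusted p = 3.72e-06). Dhx58, an RNA sensor of the RIG-I family, had 1009 and 918 normalized reads in CPA/6d against 292 and 359 in untreated GL261(B6) pools, and 1077 and 1131 in CPA/6d against 956 and 940.0 in untreated GL261(scid) pools. Usp18, which removes the ubiquitin-like ISG15 protein and dampens interferon signaling, had 1171 and 1154 normalized reads in CPA/6d against 433 and 421 in untreated GL261(B6) pools, and 2058 and 2122 in CPA/6d against 1611 and 1713 in untreated GL261(scid) pools. The differences were 1.35 ± 0.13 for Dhx58 and 1.11 ± 0.08 for Usp18 (adjusted p = 8.12e-05 and 1.28e-05). The other 4 called members, Oas1a, Oasl2, Oasl1 and Rsad2, differed by 1.11, 1.10, 1.08 and 1.04.

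Levels before treatment also differed. Summed over the list, CPA/6d GL261(B6) pools held 50045 to 51776 normalized reads and untreated GL261(B6) pools 19697 to 20056, while CPA/6d GL261(scid) pools held 66556 to 67075 and untreated GL261(scid) pools 44077 to 45020.5, so CPA/6d B6 tumors exceeded untreated scid tumors only slightly. Host and library kit cannot be told apart in that difference of level. The calls held across single pools, with 7 or 8 members called in each of the 8 fits without 1 pool, and numbered 5 with all 18 libraries in the fit. CPA/9d scid pools in place of CPA/6d gave 14 called members, and Oas2 had 3020.1 and 2799 normalized reads there.

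**Figure D4:**
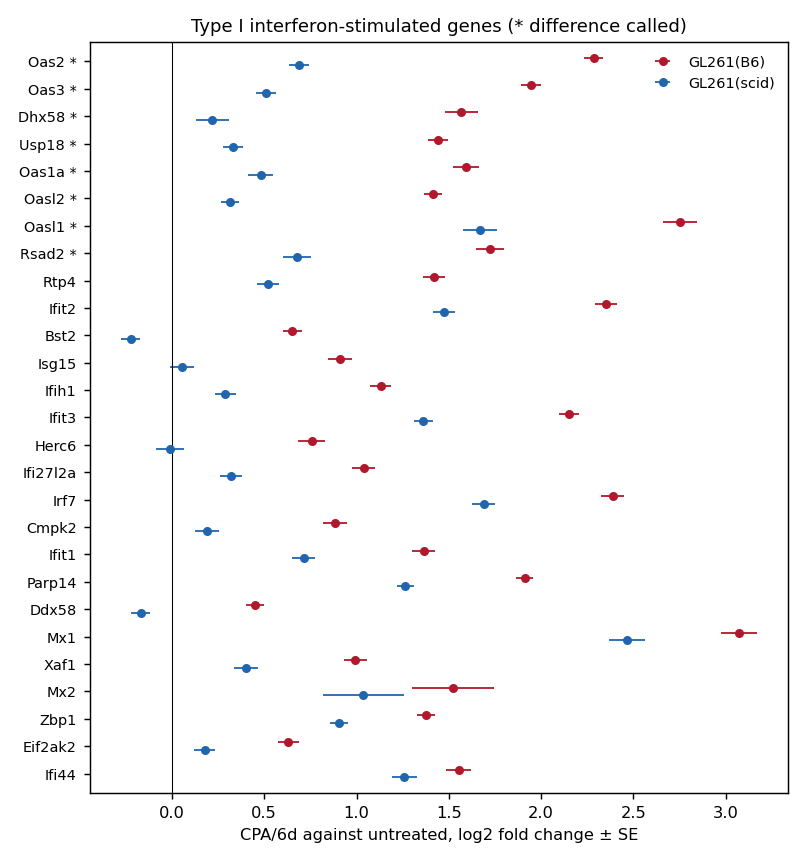
CPA/6d responses (x axis, log2 fold change with SE from the fit) of the 27 type I interferon-stimulated genes in GL261(B6) (red) and GL261(scid) tumors (blue), ordered by response difference, with an asterisk for the 8 called genes. The B6 response lies to the right of the scid response for every gene, from Oas2 with a difference of 1.60 at the top to Ifi44 with 0.30 at the bottom.

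Interferon-stimulated response elements carry GAAA, then any 2 bases, then GAAA again, letters that were searched on both strands of 300-base promoters (250 bases before to 50 after the start, RefSeq, GRCm38.p6). The letters were present in a promoter of 1079 of 27025 genes (3.99%) and of 403 of 10587 tested genes (3.81%). Of the 27 listed genes 18 matched a promoter and 10 of these held the motif (55.6%), 3 of 5 among called members and 7 of 13 among the others. The letters were not particular to this list, as 10 of 15 promoters of interferon-gamma-induced genes held them (66.7%). Among these, 0 of 1 promoters of genes called higher and 10 of 13 of genes not called held them. The stretches around the motif, in capitals, are shown for 3 called genes and, for comparison, 2 genes whose difference was not called, since both sets held the element. Each is written 5′ to 3′ on the strand of its gene, and TTTC, 2 bases and TTTC again is the motif read on the other strand.
Oas1a, chr5:120907526-120907554, minus strand: ccttctcgggaaatgGAAACTGAAAatct
Oas3, chr5:120777710-120777749, minus strand: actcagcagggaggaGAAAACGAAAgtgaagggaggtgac
Rsad2, chr12:26456548-26456587, minus strand: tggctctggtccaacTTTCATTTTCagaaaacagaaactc
Isg15, chr4:156200860-156200899, minus strand: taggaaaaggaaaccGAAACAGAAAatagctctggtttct
Ifit1, chr19:34640789-34640828, plus strand: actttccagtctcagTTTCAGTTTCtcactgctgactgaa

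Isg15 and Ifit1, the genes without a called difference, had response differences of 0.86 ± 0.09 and 0.65 ± 0.09. A match of these letters describes a promoter and is not evidence of a factor bound there.

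Interferon-gamma-induced genes rose for 24 of 28 tested members in B6 and 12 in scid tumors, with a median difference of 0.38, and besides Nos2 the differences of Ubd and Gbp6 were called higher in B6. Gbp6, an interferon-induced guanylate-binding protein, had 3560.4 and 3602 normalized reads in CPA/6d against 1797 and 1398 in untreated GL261(B6) pools, and 1036 and 1173 in CPA/6d against 1035 and 1159 in untreated GL261(scid) pools. Its scid pools overlapped between CPA/6d and untreated tumors, and the difference was 1.17 ± 0.15 (adjusted p = 0.000495). The call was lost without the untreated GL261(B6) pool with fewer reads (range 0.98 to 1.34). Ubd, a ubiquitin-like modifier also called FAT10, had 585 and 564 normalized reads in CPA/6d against 172 and 127 in untreated GL261(B6) pools, and 46.5 and 49.3 in CPA/6d against 35.9 and 24.2 in untreated GL261(scid) pools, a difference of 1.27 ± 0.29 (adjusted p = 0.0126) that was called in only 2 of the 8 fits without 1 pool (range 1.00 to 1.55). Irf8, a transcription factor of myeloid development, went the other way, with 2381 and 2539.9 normalized reads in CPA/6d against 941 and 831 in untreated GL261(B6) pools, and 1491 and 1465 in CPA/6d against 255 and 233 in untreated GL261(scid) pools. The Irf8 difference was -1.12 ± 0.10 (adjusted p = 7.38e-05), and untreated B6 pools lay above untreated scid pools.

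No antigen presentation gene had a called difference. All 12 tested MHC class II members rose in B6 and 11 of 12 in scid tumors, with a median difference of 0.08. H2-Aa, a class II chain, had 24743 and 27827 normalized reads in CPA/6d against 3965 and 3631 in untreated GL261(B6) pools, and 5208 and 4262 in CPA/6d against 746 and 643 in untreated GL261(scid) pools, a difference of 0.03 ± 0.14 (95% interval -0.28 to 0.33). H2-Ab1, H2-Eb1 and H2-DMa differed by 0.10, -0.24 and -0.37. Class I genes rose for 10 of 18 tested members in B6 and 9 in scid tumors, with a median difference of 0.28. H2-K1, which encodes a classical class I chain, had 26702 and 29113 normalized reads in CPA/6d against 7712 and 7384 in untreated GL261(B6) pools, and 10898 and 10399 in CPA/6d against 4565 and 4492 in untreated GL261(scid) pools, and its difference of 0.65 ± 0.08 was under 2-fold. H2-D1 differed by 0.07 (95% interval -0.09 to 0.23), H2-T23 by 0.34 and H2-T22 by -0.25. Class I genes are highly similar to each other and differ between mouse strains, so reads may be shared or lost among them, and the tumor cells and the scid hosts may carry different alleles.

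Chemokine genes rose widely in both hosts, 30 of 42 tested members in B6 and 29 in scid tumors, with 4 higher and 1 lower response differences in B6 (backgrounds 17.6% and 17.5% for the responses, 1.08% and 1.14% for the differences). Cxcr6, a receptor of activated and resident T cells and NK cells, had 437 and 548 normalized reads in CPA/6d against 48.3 and 62.0 in untreated GL261(B6) pools, and 75.3 and 86.0 in CPA/6d against 96.4 and 99.6 in untreated GL261(scid) pools. CPA/6d lifted Cxcr6 in B6 (3.14 ± 0.17) but its scid response of -0.28 ± 0.17 was not called, and the difference was 3.42 ± 0.24 (adjusted p = 1.28e-05). Ccl17, a chemokine made by dendritic cells that attracts T cells through CCR4, had 137 and 146 normalized reads in CPA/6d against 22.7 and 25.1 in untreated GL261(B6) pools, and 33.8 and 15.5 in CPA/6d against 42.6 and 43.7 in untreated GL261(scid) pools, a difference of 3.40 ± 0.44 (adjusted p = 0.000577). Ccl22, which acts on the same receptor, differed by 1.79 ± 0.34 (adjusted p = 0.0055), with 3 of 8 fits without 1 pool losing the call (range 1.42 to 2.16). Xcr1, the receptor that marks cross-presenting dendritic cells, had 61.6 and 45.2 normalized reads in CPA/6d against 17.0 and 15.1 in untreated GL261(B6) pools, and 113 and 110.1 in CPA/6d against 142 and 158 in untreated GL261(scid) pools. The Xcr1 difference was 2.08 ± 0.29 (adjusted p = 0.000873), the only one called among 12 tested dendritic cell genes, whose median was 0.59. The defining dendritic cell markers Itgax, Clec9a and Flt3 differed by 0.73, 0.75 and 0.25, none called. Each lay higher in CPA/6d than in untreated pools of both hosts, unlike Xcr1 in scid pools. Clec9a had 205 and 257 normalized reads in CPA/6d against 12.8 and 16.8 in untreated GL261(B6) pools. In GL261(scid) pools it had 70.4 and 52.2 in CPA/6d against 12.0 and 2.79 untreated, so scid levels of Xcr1 and Clec9a did not move together. The fifth called gene of the chemokine list was Cx3cr1, described with the macrophage genes.

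Cytokine genes rose for 39 of 47 tested members in B6 and 37 in scid tumors, and the 3 called differences were lower in B6, for Il1rl1, Il2rb and Tgfb3. Il1rl1 (ST2), the receptor for interleukin-33, had 126 and 114 normalized reads in CPA/6d against 31.2 and 26.8 in untreated GL261(B6) pools, and 568 and 300.4 in CPA/6d against 31.3 and 23.3 in untreated GL261(scid) pools. The CPA/6d GL261(scid) pools were far apart, the call was lost in 5 of 8 fits without 1 pool, and with the CPA/9d scid pools, which held 87.9 and 111 normalized reads, the difference of -1.87 ± 0.38 became 0.16. Tgfb3, a transforming growth factor, had 475 and 417 normalized reads in CPA/6d against 446 and 526 in untreated GL261(B6) pools, and 960.4 and 1155 in CPA/6d against 515 and 527 in untreated GL261(scid) pools, a difference of -1.14 ± 0.15 (adjusted p = 0.000616). Complement genes rose for 18 of 20 members in each host. C3, the central component, was one of the most abundant transcripts to differ, with 19811 and 22882 normalized reads in CPA/6d against 1175 and 1225 in untreated GL261(B6) pools, and 5201 and 4826 in CPA/6d against 844 and 711 in untreated GL261(scid) pools. The C3 response was 4.15 ± 0.08 in B6 and 2.69 ± 0.08 in scid tumors, a difference of 1.46 ± 0.12 (adjusted p = 3.81e-05), and the call was lost with the CPA/9d scid pools (6949 and 7224 normalized reads). C6, a component of the membrane attack complex, differed by 1.59 ± 0.36 (adjusted p = 0.0128), a call lost in 7 of 8 fits without 1 pool (range 1.41 to 1.77). C4a had 10.4 and 11.3 normalized reads in CPA/6d against 19.9 and 15.1 in untreated GL261(B6) pools, and 218 and 233 in CPA/6d against 31.3 and 25.1 in untreated GL261(scid) pools, a difference of -3.59 ± 0.36 (adjusted p = 0.00011), but C4a and C4b are near-identical and reads could be split between them.

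Vessel genes mostly were not called in B6 tumors and rose in scid tumors. Of 21 endothelial genes 4 rose in B6 and 18 in scid tumors, the difference was negative for 20 of 21 with a median of -0.87, and 6 had a lower response in B6 (background 1.14%). Kdr (mm9 chr5:76328852-76374483), which encodes VEGF receptor 2, had 242 and 236 normalized reads in CPA/6d against 210.1 and 238 in untreated GL261(B6) pools, and 758 and 646 in CPA/6d against 201 and 189 in untreated GL261(scid) pools. The B6 pools overlapped between CPA/6d and untreated tumors and the scid pools did not, and the Kdr response was 0.10 ± 0.10 in B6 and 1.84 ± 0.10 in scid tumors, a difference of -1.74 ± 0.15 (adjusted p = 5.02e-05). Tie1, an endothelial receptor kinase, had 212 and 186 normalized reads in CPA/6d against 194.5 and 189 in untreated GL261(B6) pools, and 306 and 316 in CPA/6d against 134 and 127 in untreated GL261(scid) pools, a difference of -1.20 ± 0.15 (adjusted p = 0.000568). Emcn (endomucin) and Mmrn2, both endothelial surface or matrix proteins, differed by -1.19 ± 0.23 and -1.05 ± 0.18 (adjusted p = 0.0057 and 0.0035), and lost their calls in 4 and 3 of 8 fits without 1 pool (ranges -1.41 to -0.98 and -1.17 to -0.94). Vwf and Egfl7 were the other called members (-1.01 and -1.02). Flt1 (VEGF receptor 1), the only member with a positive difference, was at 0.91, which was not called. Without the CPA/6d GL261(scid) pool with more reads 2 endothelial genes were called lower, without the untreated GL261(scid) pool with fewer reads 3, and with 10 normalized reads added 3.

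Pericytes are the mural cells that wrap capillaries. Of 12 tested pericyte and smooth muscle genes 4 had a lower response in B6, and these 4 were called in every fit without 1 pool and under every alternative tried. Kcnj8 and Abcc9 encode the 2 subunits of a vascular ATP-sensitive potassium channel. Kcnj8 had 33.4 and 33.9 normalized reads in CPA/6d against 62.5 and 57 in untreated GL261(B6) pools, and 95.1 and 78.2 in CPA/6d against 39.2 and 29.8 in untreated GL261(scid) pools, a difference of -2.12 ± 0.31 (adjusted p = 0.00123). Abcc9 had 147 and 158 normalized reads in CPA/6d against 194.5 and 211 in untreated GL261(B6) pools, and 217 and 170.0 in CPA/6d against 98.4 and 94 in untreated GL261(scid) pools, a difference of -1.40 ± 0.20 (adjusted p = 0.000966). Neither response was called in B6 tumors, where both CPA/6d pools lay below both untreated pools for each gene. Rgs5, a pericyte regulator of G protein signaling, had 322 and 223 normalized reads in CPA/6d against 285 and 255 in untreated GL261(B6) pools, and 352 and 326 in CPA/6d against 93.8 and 106 in untreated GL261(scid) pools. Notch3, the Notch receptor of mural cells, had 228 and 271 normalized reads in CPA/6d against 226 and 179 in untreated GL261(B6) pools, and 563 and 495 in CPA/6d against 174 and 147 in untreated GL261(scid) pools. Their differences were -1.76 ± 0.22 and -1.42 ± 0.20 (adjusted p = 0.000497 and 0.000873). The contractile smooth muscle genes Acta2, Tagln and Cnn1 had differences of the other sign, 0.86, 0.81 and 0.40, none called, and Pdgfrb, the pericyte growth factor receptor, rose in both hosts with a difference of 0.04 (95% interval -0.19 to 0.27).

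**Figure D5:**
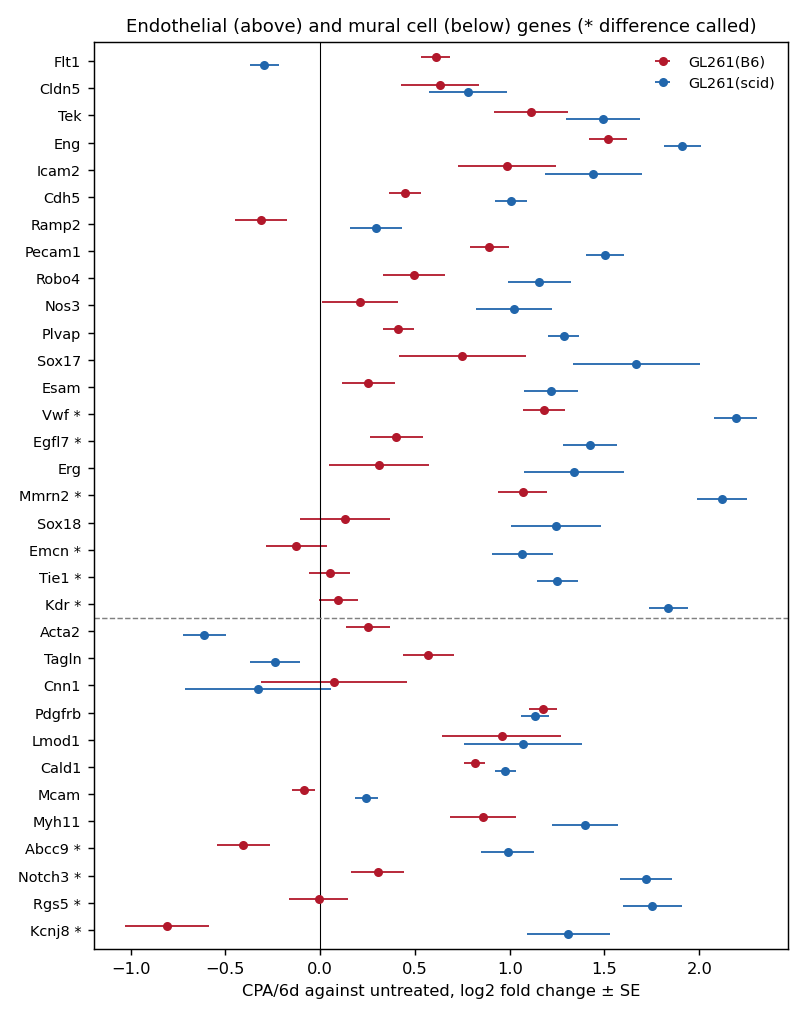
CPA/6d responses (x axis, log2 fold change with SE from the fit) of 21 endothelial genes (above the dashed line) and 12 pericyte and smooth muscle genes (below it) in GL261(B6) (red) and GL261(scid) tumors (blue), ordered by response difference within each list, with an asterisk for the called genes. The scid response exceeds the B6 response for 20 of 21 endothelial genes, and the 4 called mural cell genes end the lower list.

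Fibroblast and matrix genes rose in both hosts, 26 of 29 members in B6 and 28 in scid tumors, with a median difference of -0.37 and 4 lower responses in B6. Mmp2, a matrix metalloproteinase, had 3884 and 4398 normalized reads in CPA/6d against 904 and 1172 in untreated GL261(B6) pools, and 13999 and 12204 in CPA/6d against 1536 and 1478 in untreated GL261(scid) pools, a difference of -1.11 ± 0.15 (adjusted p = 0.000766). Dpt (dermatopontin), Fap (fibroblast activation protein) and Ogn (osteoglycin) differed by -1.15 ± 0.18, -1.13 ± 0.24 and -1.06 ± 0.24 (adjusted p = 0.00175, 0.00939 and 0.0124). Mmp2 lost its call without the untreated GL261(B6) pool with fewer reads (range -1.30 to -0.92), Dpt without the CPA/6d GL261(scid) pool with more reads (range -1.37 to -0.94), and Fap and Ogn each in 6 of 8 fits (ranges -1.36 to -0.90 and -1.30 to -0.82). Mgp, matrix Gla protein, had a lower response in B6 in every fit. It had 197.4 and 133 normalized reads in CPA/6d against 138 and 127 in untreated GL261(B6) pools, and 679 and 638 in CPA/6d against 94.4 and 79.1 in untreated GL261(scid) pools, a difference of -2.63 ± 0.24 (adjusted p = 7.21e-05). The 3 collagen and decorin markers summed to 90137 to 97058 normalized reads in CPA/6d and 29090.2 to 33317 in untreated GL261(B6) pools, and to 271360.3 to 336582 in CPA/6d and 63931 to 73709 in untreated GL261(scid) pools.

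Genes of tissues that lie around a flank tumor varied widely between pools. Skeletal muscle genes were called as rising for none of 21 tested members in B6 tumors and for 15 in scid tumors. Their median response was nevertheless 2.22 in B6 and 3.57 in scid tumors, and no difference was called. The median difference was -1.57, or -0.85 when pools were averaged before taking logs and means under the detection limit were raised to it. Acta1, the skeletal actin gene, had 1699.8 and 307 normalized reads in CPA/6d against 83.8 and 282 in untreated GL261(B6) pools, and 3863 and 3270.4 in CPA/6d against 106 and 572 in untreated GL261(scid) pools, a difference of -1.62 ± 1.16 with a 95% interval of -4.16 to 0.92. Myh4, a fast myosin, had 3426 and 184 normalized reads in CPA/6d against 85.2 and 263 in untreated GL261(B6) pools, and 4449 and 6119.8 in CPA/6d against 55.2 and 482 in untreated GL261(scid) pools. The CPA/6d GL261(B6) pool with more reads carried most of that group's muscle RNA, and Myh1 and Myh2 showed the same split with differences of -0.80 and -0.82. Smyd1, a muscle methyltransferase, was called lower in B6 (-2.71, adjusted p = 0.0132), and the call was lost in 6 of 8 fits without 1 pool (range -3.26 to -2.18) and in 6 of the 8 other alternatives, other size factors among them, with a difference of -1.41 when 10 normalized reads were added, and the part of the muscle markers in it was not tested. Asb11, an ankyrin repeat gene, was called higher in B6. It had 25.1 and 41.0 normalized reads in CPA/6d against 2.84 and 5.03 in untreated GL261(B6) pools, and 57 and 64.7 in CPA/6d against 147 and 158 in untreated GL261(scid) pools, a difference of 4.09 ± 0.43 (adjusted p = 0.000172). Of 10 tested adipocyte genes 4 rose in B6 and 10 in scid tumors with no difference called. The median difference was -1.03, or -0.58 with that averaging of pools. Adipoq, Plin1, Cidec and Fabp4 differed by -1.61, -0.36, -1.17 and -0.89. Keratin Krt10 had 11.5 and 298 normalized reads in CPA/6d against 0 and 1.68 in untreated GL261(B6) pools, and 18.3 and 15.5 in CPA/6d against 1.33 and 3.72 in untreated GL261(scid) pools, and its difference of 2.80 ± 1.56 was not called. Krt17 had 7.31 and 11.3 normalized reads in CPA/6d GL261(B6) pools against no read in untreated ones, at least 3.91-fold higher, and Sfn differed by -0.86, neither difference being called.

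Liver genes differed by host in level, which cannot be told apart from the kit. Of the 14 listed genes 8 were at or under 3 reads in both B6 groups, so a response could be compared for few. Cyp2e1, a cytochrome P450 of liver and fat, had 169 and 319 normalized reads in CPA/6d against 25.6 and 6.71 in untreated GL261(B6) pools, and 534 and 536 in CPA/6d against 305 and 251 in untreated GL261(scid) pools, a difference of 3.08 ± 0.62 (adjusted p = 0.00765) that was lost in 5 of 8 fits without 1 pool (range 2.19 to 3.98). The 3 adipocyte markers summed to 233 to 638.5 normalized reads in CPA/6d and 65.4 to 75.2 in untreated GL261(B6) pools, and to 796 to 801 in CPA/6d and 35.4 to 132 in untreated GL261(scid) pools, and their part in the Cyp2e1 result was not tested. Apoa2, an apolipoprotein made by liver, had 2.09 and 1.41 normalized reads in CPA/6d against 12.8 and 13.4 in untreated GL261(B6) pools, and 182 and 157 in CPA/6d against 205 and 186 in untreated GL261(scid) pools. CPA/6d GL261(B6) pools held 3 reads of Apoa2, and the difference of -2.16 ± 0.35 (adjusted p = 0.00234) moved to -0.78 with 10 normalized reads added.

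Proliferation genes fell for 8 of 28 members in B6 (background 6.08%) and 20 of 28 in scid tumors (background 7.39%). The difference was positive for all 28, with a median of 0.37, and none was called. Mki67, the proliferation marker Ki-67, had 2841 and 2791 normalized reads in CPA/6d against 5938 and 5485 in untreated GL261(B6) pools, and 1772 and 1885 in CPA/6d against 4958 and 4831 in untreated GL261(scid) pools, a difference of 0.40 ± 0.08 (95% interval 0.24 to 0.57). Top2a, topoisomerase 2 alpha, fell to 3082 and 3303 normalized reads in CPA/6d GL261(scid) pools, against 7762 and 7601 in untreated ones, and its B6 response of -0.86 ± 0.06 was not called. The cyclin genes Ccnb1 and Ccnb2 differed by 0.17 and 0.63. Glial and oligodendrocyte lineage genes fell for 19 of 27 tested members in B6 and 17 in scid tumors, with a median difference of -0.12. Pdgfra, a growth factor receptor of glial precursors that fibroblasts also make, was the 1 member called. It had 949.6 and 1110.3 normalized reads in CPA/6d against 1759 and 1462 in untreated GL261(B6) pools, and 1448 and 1348 in CPA/6d against 749 and 793 in untreated GL261(scid) pools, so its pools lay lower after CPA/6d in B6 and higher in scid hosts, neither response passing 2-fold, and the difference was -1.50 ± 0.13 (adjusted p = 5.90e-05).

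Targets of p53 rose for 7 of 22 tested members in each host (backgrounds 17.6% in B6 and 17.5% in scid tumors), and no difference was called (median -0.22). Cdkn1a, the cell cycle inhibitor p21, had 2803 and 2923 normalized reads in CPA/6d against 850.3 and 969 in untreated GL261(B6) pools, and 5030.1 and 4575 in CPA/6d against 1571 and 1470.4 in untreated GL261(scid) pools, with a 95% interval of the difference of -0.22 to 0.22. Mdm2, Ccng1 and Bax differed by -0.16, -0.40 and 0.17. Sterol and fatty acid synthesis genes fell for 20 of 24 tested members in B6 and 18 in scid tumors. Among calcium channel and transport genes the voltage-gated channel genes Cacna1a and Cacna1g and the exchanger gene Slc8a3 had lower responses in B6 (-1.87, -1.61 and -1.40, adjusted p = 0.0023, 0.00606 and 0.0055), 3 of 25 tested. Cacna1a had 32.4 and 33.9 normalized reads in CPA/6d against 22.7 and 26.8 in untreated GL261(B6) pools, and 244 and 204 in CPA/6d against 51.2 and 40.0 in untreated GL261(scid) pools, and its call was lost without the CPA/6d GL261(scid) pool with more reads (range -2.04 to -1.69). Cacna1g and Slc8a3 lost theirs in 5 and 3 of 8 such fits.

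Detoxification genes gave 1 call among 18 tested. Mgst1, a microsomal glutathione transferase, had 919 and 1167 normalized reads in CPA/6d against 88.0 and 62.0 in untreated GL261(B6) pools, and 718 and 647 in CPA/6d against 170.2 and 177 in untreated GL261(scid) pools, a difference of 1.82 ± 0.22 (adjusted p = 0.000387) that held in every fit without 1 pool (range 1.57 to 2.07). Among 16 hypoxia and glycolysis genes Eno1 was called higher (2.96, adjusted p = 0.0116) on 0 reads in untreated and 5 reads in CPA/6d GL261(B6) pools, and the glycolytic enzyme has near-identical copies in the genome among which reads can be lost. The Eno1 call was lost in 5 of 8 fits without 1 pool (range 2.43 to 3.58), with a minimum of 50 reads, with voom weights and with the CPA/9d scid pools, and the difference was 1.27 with 10 normalized reads added. Prkdc, the gene that carries the scid mutation, had 231 and 251 normalized reads in CPA/6d against 322 and 297 in untreated GL261(B6) pools, and 176 and 251 in CPA/6d against 311 and 308 in untreated GL261(scid) pools, and its difference of 0.20 ± 0.20 was not called (95% interval -0.24 to 0.64). The Ku subunit genes Xrcc5 and Xrcc6 fell in both hosts with differences of 0.13 and 0.07, and the ligase Lig4 differed by 0.56, none called. Y-linked genes rose in both hosts, and Ddx3y, Eif2s3y, Kdm5d and Uty differed by 0.17, -0.04, 0.35 and 0.13. Ddx3y had 635 and 637 normalized reads in CPA/6d against 135 and 142 in untreated GL261(B6) pools, and 449 and 443 in CPA/6d against 115 and 103 in untreated GL261(scid) pools. Xist, the only sex-linked gene called, differed by -5.04 ± 0.40 (adjusted p = 3.18e-05), which rests on the CPA/6d GL261(scid) pools alone, as B6 pools held 16.7 and 14.1 normalized reads after CPA/6d and 22.7 and 16.8 untreated, and with the CPA/9d scid pools the call was lost.

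The 2 remaining genes with the largest differences were Apol7c and Mrgprg. Apol7c, an apolipoprotein L gene expressed by dendritic cells, had 202 and 139.8 normalized reads in CPA/6d against 14.2 and 11.7 in untreated GL261(B6) pools, and 0.704 and 0 in CPA/6d against 0 and 0.931 in untreated GL261(scid) pools. Mrgprg, an orphan receptor of the Mas-related family, had 89.8 and 106 normalized reads in CPA/6d against 4.26 and 8.38 in untreated GL261(B6) pools, and 0.704 and 0 in CPA/6d against 0 and 0 in untreated GL261(scid) pools. Both scid groups were at or under 3 reads for each gene, so no fold is given there, and the fitted differences were 3.69 ± 0.70 and 3.43 ± 0.74 (adjusted p = 0.00547 and 0.0105). Only the B6 response was measured for each gene, so these calls do not compare responses of 2 hosts. The Apol7c call was lost in 4 of 8 fits without 1 pool (range 3.22 to 4.13) and the Mrgprg call in 4 of the 6 such fits in which it was tested (range 2.98 to 3.82). With the CPA/9d scid pools the Mrgprg difference was 2.21 and not called.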

How the data were processed

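Poly(A) RNA of pooled GL261 tumors was sequenced, 2 pools a group. The authors mapped reads to mm9 with TopHat2 2.0.13, counted them over RefSeq genes, normalized them with DESeq and deposited, per group, the mean over both pools of the normalized read signal. The authors' own ratios, fold changes and p-values in the same tables were not used. Each mean was split back into whole reads of 2 pools, which succeeded for 100% of genes with reads in every group. Pools are known only by their total (more or fewer reads). Reads were normalized by trimmed mean of M-values, and log2(normalized reads + 1) of 8 libraries was fitted by limma 3.58.1 in R 4.3.3 (trend, 4 residual degrees of freedom) for genes with at least 10 reads in at least 2 libraries and 15 in all. A fitted response difference was the B6 contrast minus the scid contrast, and it correlated with the same quantity taken from the deposited means with r = 0.986. On simulated data of the same size, 3-fold differences were called for 100% of genes raised and 95% of genes lowered, 2-fold differences for 60% and 42.5%, and unchanged genes for 0.0145%. Each fold was set for 40 genes. Changed genes were drawn only from those averaging at least 50 reads in untreated pools, with reads in all 8 libraries. Beyond counting error, every simulated gene had the same fixed relative spread between pools. The shares were not split by read number or by spread between pools. The shares therefore do not speak for genes near the detection limit or with pools far apart.

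The genes, lists and comparisons were chosen with earlier results of these data known. Named genes were the 12 highest and 12 lowest called differences with at least 50 normalized reads in some group, up to 4 called members per list and direction (the first 4 members where none was called), genes called in opposite directions, the 6 closest large shared responses, sex-linked genes and Prkdc. Csf3r, Cxcr2, Mmp9, Lcn2, Gzmc, Ifng, Ccl5, Fasl, Cd3d, Cd247, Cd8a, Cd4, Oas1a, Oasl1, Oasl2, Rsad2, Isg15, Ifit1, Ifi44, Itgax, Clec9a, Flt3, Vwf, Egfl7, Flt1, Acta2, Tagln, Cnn1 and Pdgfrb were named after their values were seen. Some genes that these rules pick are not reported here. Alternatives were other size factors, 10 normalized reads added, no or stricter filters, an adjusted p, all 18 libraries in 1 fit, voom weights, the deposited means and each pool left out, with the CPA/9d pools of scid mice added after seeing the data. Promoters were taken from RefSeq (GRCm38.p6), whose coordinates differ from mm9. Genes whose untreated pools held 0 reads are given as lower bounds against 3 reads over the group, and intervals cover counting error only.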

Additional observations from a re-analysis of the deposited data

Results flagged for a closer look

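By the interaction term of the limma fit, 161 genes had a higher and 170 a lower CPA/6d response in GL261(B6) than in GL261(scid) tumors. Those among them that were named by rule are given here by response difference (log2, B6 minus scid). Called genes that were named after their values were seen are left out. With 2 pools a group no sample could be screened as an outlier.

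Among neutrophil genes, the differences were 5.61 for Ngp, 4.88 for S100a9, 4.34 for Camp, 4.03 for Mpo, 4.01 for Ltf and 3.98 for S100a8. Among macrophage genes, the differences were 3.31 for Chi3l3, 2.62 for Nos2, 1.82 for Mgl2, 1.61 for Arg1, 1.09 for Msr1, -1.37 for Cd14 and -1.45 for Cx3cr1. Among cytotoxic and NK cell genes, the differences were 2.27 for Klre1, -1.29 for Il2rb, -2.33 for Prf1, -3.16 for Gzmf, -3.36 for Gzmb, -3.39 for Gzmg, -3.44 for Gzma, -3.63 for Klra5 and -4.90 for Klrg1. Among T cell and checkpoint genes, the differences were 3.04 for Cd3e, 2.44 for Cd3g, 1.82 for Pdcd1lg2, 1.65 for Bcl11b, 1.43 for Tnfrsf18, 1.05 for Rasgrp1, 1.02 for Lck and -3.43 for Tnfsf18. Among interferon genes, the differences were 1.60 for Oas2, 1.44 for Oas3, 1.35 for Dhx58, 1.27 for Ubd, 1.17 for Gbp6, 1.11 for Usp18 and -1.12 for Irf8. Among chemokine, cytokine, dendritic cell and complement genes, the differences were 3.42 for Cxcr6, 3.40 for Ccl17, 2.08 for Xcr1, 1.79 for Ccl22, 1.59 for C6, 1.46 for C3, -1.14 for Tgfb3, -1.87 for Il1rl1 and -3.59 for C4a. Among vessel and stromal genes, the differences were -1.05 for Mmrn2, -1.06 for Ogn, -1.11 for Mmp2, -1.13 for Fap, -1.15 for Dpt, -1.19 for Emcn, -1.20 for Tie1, -1.40 for Abcc9, -1.42 for Notch3, -1.50 for Pdgfra, -1.74 for Kdr, -1.76 for Rgs5, -2.12 for Kcnj8 and -2.63 for Mgp. Among muscle, calcium, liver and metabolic genes, the differences were 4.09 for Asb11, 3.08 for Cyp2e1, 2.96 for Eno1, 1.82 for Mgst1, -1.40 for Slc8a3, -1.61 for Cacna1g, -1.87 for Cacna1a, -2.16 for Apoa2 and -2.71 for Smyd1. Among the remaining genes, the differences were 4.44 for Smpd3, 3.69 for Apol7c, 3.43 for Mrgprg, -3.01 for Tmem178 and -5.04 for Xist. For Cd3e, Apol7c and Mrgprg only the B6 response was measured, as their scid pools were at or under the detection limit.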

How the results depend on the processing

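No paired analysis was possible because the deposited columns hold group means and the pools recovered from them carry no replicate number. Genes with a higher response in B6, 161 in all, numbered 252 by an adjusted p, 98 with all 18 libraries in 1 fit and 547 by fold alone on the deposited means, and 109 to 205 without 1 pool. Genes with a lower response, 170 in all, numbered 274, 115 and 682 under the same settings, 273 with the CPA/9d scid pools (chosen after seeing the data), and 97 to 1.9e+02 (to 2 digits) without 1 pool, the fewest without the CPA/6d scid pool with more reads. With all 18 libraries 87 of the 161 and 102 of the 170 were still called. Called neutrophil genes (6) numbered 0 with voom weights and 2 to 6 without 1 pool. Called interferon-stimulated genes (8) numbered 5 with all libraries, 14 with CPA/9d and 7 to 8 without 1 pool. Called T cell receptor genes (2) numbered 9 with 10 normalized reads added, 4 by an adjusted p, 1 with voom weights, 1 with CPA/9d and 0 to 3 without 1 pool, with 0 when the CPA/6d B6 pool with fewer reads was left out and 1 when the one with more reads was. Called cytotoxic genes (5) numbered 3 with all libraries and 5 to 6 without 1 pool, and called endothelial genes (6) numbered 3 with 10 normalized reads added and 2 to 6 without 1 pool. The cause of these shifts was not tested. Pericyte calls and the response counts within each host stayed within 1.5 times under every alternative. Il1rl1 changed sign with CPA/9d (0.16). Of 74 called named genes 32 lost the call in some fit without 1 pool and 12 with CPA/9d. These named genes are those named by rule, without the genes named after their values were seen. Without 1 pool, a group of 1 is assumed to vary like the others. Depth limits genes near 3 reads, mainly lymphocyte genes in scid and liver genes in B6 pools.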

Other observations

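The CPA/9d schedule in scid mice, with injections 9 days apart, gave a further set of responses against the same untreated GL261(scid) pools as CPA/6d, so the pairs of values are not independent, and the spacing of injections differs while tumors of both schedules were taken 6 days after the second injection. Gzmb had 655 and 578 normalized reads in CPA/9d pools, a response of 5.58 on the log2 scale, beside 2.75 for CPA/6d in B6 and 6.11 for CPA/6d in scid tumors. Klrg1 had 57 and 45.3 normalized reads, beside 70.4 and 70.5 in the CPA/6d scid pools. Ngp had 15.5 and 12.0 normalized reads, in the range of the CPA/6d scid pools and far under those of CPA/6d B6 tumors. The Oas2 response was 0.52, beside 2.29 for CPA/6d in B6 and 0.69 in scid tumors. Kdr responded by 1.64 with CPA/9d, beside 0.10 for CPA/6d in B6 and 1.84 in scid tumors, and the pericyte gene Rgs5 by 1.85, beside -0.01 and 1.75. Cxcr6 was at -0.59, beside 3.14 for CPA/6d in B6 and -0.28 in scid tumors. The neutrophil, vessel and Cxcr6 values of both scid schedules thus lay on the same side of the B6 response.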
